A study of Mus musculus with 6 samples.

Results

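The Serpina family holds the clade A serpins, a group of protease inhibitors that are mostly secreted into the blood. RNA of 10 Serpina genes was followed in liver tumors grown from HCA-1 cells, 3 from mice left untreated (controls) and 3 from mice given GOx-DOX-LGP, out of 55536 genes counted and 15374 kept by the filter on low counts. The members, given by gene symbol, were Serpina1a, Serpina1b, Serpina1c, Serpina1d, Serpina1e, Serpina3k, Serpina3m, Serpina3n, Serpina6 and Serpina10, and 10 of 10 passed the filter. HCA-1 is a murine HCC line, grown here under the liver capsule of male C3H mice (C3H/HeNCrNarl in the methods) of 6 to 8 weeks, which are immunocompetent hosts. GOx-DOX-LGP is a lipid, gelatin and protamine nanogel that carries glucose oxidase, an enzyme that consumes glucose, together with the chemotherapeutic doxorubicin. Treated mice received it intravenously on days 18, 19 and 20. The control mice were labelled as untreated, and no group given an empty nanogel was analysed here, so the carrier and its cargo cannot be told apart. The labels place the RNA analysis after a circulation of 3 h on day 17, before the stated doses, while the Supporting Information of the study places tumor harvest after the last dose. The tumors came from 1 cell line, and each library is bulk RNA that can hold HCA-1 cells, host liver, stroma and immune cells.

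A serpin exposes a flexible reactive centre loop as bait for a protease. When the protease cuts the loop, the serpin folds it into its own body and traps the protease in a covalent complex. Most plasma serpins are made by hepatocytes, and several of them, among them alpha-1 antitrypsin and Serpina3n, belong to the acute phase response. Mice carry several copies of the alpha-1 antitrypsin gene, and an expanded set of Serpina3 genes where humans have a single antichymotrypsin gene.

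The members lie on chromosome 12 (GRCm38). Serpina10 and Serpina6 begin a stretch on the minus strand at 103614786, the 5 Serpina1 genes follow it up to 103958975, and Serpina3k, Serpina3m and Serpina3n lie on the plus strand between 104338486 and 104414329. The coding sequences of the 5 Serpina1 paralogs were between 96.3% and 98.5% identical over the 1242 bases that they share. Their differences were denser in the stretch that encodes the reactive centre loop, which decides what protease is caught, but were not confined to it. Between Serpina1c and Serpina1d 5 of 41 differing bases lay in it, and between Serpina1a and Serpina1c 10 of 19. Over the 81 bases from the hinge of the loop onward, identity between pairs was between 85.2% and 93.8%. These stretches are shown because a read must cover letters that differ, here or elsewhere, to be assigned to 1 paralog. They are GRCm38 reference sequence, printed 5′ to 3′ on the minus strand, all within the last coding exon, and capitals mark the 18 positions at which the 5 genes are not identical.
Serpina1a (chr12:103853750-103853830): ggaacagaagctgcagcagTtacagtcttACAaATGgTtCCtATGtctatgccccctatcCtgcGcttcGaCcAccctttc
Serpina1b (chr12:103728317-103728397): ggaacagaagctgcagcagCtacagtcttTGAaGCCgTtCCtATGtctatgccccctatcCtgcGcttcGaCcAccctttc
Serpina1c (chr12:103895087-103895167): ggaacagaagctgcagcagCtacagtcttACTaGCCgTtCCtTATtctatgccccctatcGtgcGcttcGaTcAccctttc
Serpina1d (chr12:103763755-103763835): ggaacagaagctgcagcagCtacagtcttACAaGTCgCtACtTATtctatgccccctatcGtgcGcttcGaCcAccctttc
Serpina1e (chr12:103947093-103947173): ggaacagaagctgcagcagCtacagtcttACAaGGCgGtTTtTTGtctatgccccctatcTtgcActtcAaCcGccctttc
Serpina1e has 8 bases of its own in this stretch, against 2 or 3 in each of the other paralogs.

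Reads from near-identical genes are difficult to place, and the sources do not state how such reads were counted. Of the 50-base stretches in the annotated transcripts of each gene, the share that also occurs in another gene was 79.3% for Serpina1c, 57.6% for Serpina1a, 50.9% for Serpina1d, 34.6% for Serpina1e and 29.5% for Serpina1b. It was 19.1% for Serpina3m, 14.0% for Serpina3k, 6.90% for Serpina3n and 1.47% for Serpina10, and no stretch of Serpina6 was shared (0%). Values of single Serpina1 paralogs are therefore uncertain in how counts divide among them, and those of Serpina1c most of all. Serpina3k and Serpina3m share 60 exonic bases in the annotation. Serpina1c overlaps B430119L08Rik on the other strand by 429 bases, and the use of strand in counting was not stated.

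RefSeq windows of 250 bases before the gene start (GRCm38.p6) were at hand for 6 members, the 5 Serpina1 genes and Serpina3n. The Serpina1 windows are shown through Serpina1b because all 5 hold an identical run of 55 bases. That run contains GTTAAT, the half-site of HNF1, a hepatocyte transcription factor.
Shared run of the 5 Serpina1 genes: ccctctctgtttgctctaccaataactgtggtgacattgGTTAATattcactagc
Serpina1b (chr12:103738190-103738439, minus strand): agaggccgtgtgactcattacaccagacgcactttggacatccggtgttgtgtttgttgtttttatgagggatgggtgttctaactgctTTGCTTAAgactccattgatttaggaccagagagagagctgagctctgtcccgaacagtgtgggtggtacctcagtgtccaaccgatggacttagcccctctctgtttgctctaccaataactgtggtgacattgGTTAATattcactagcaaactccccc
Serpina3n (chr12:104406458-104406707, plus strand): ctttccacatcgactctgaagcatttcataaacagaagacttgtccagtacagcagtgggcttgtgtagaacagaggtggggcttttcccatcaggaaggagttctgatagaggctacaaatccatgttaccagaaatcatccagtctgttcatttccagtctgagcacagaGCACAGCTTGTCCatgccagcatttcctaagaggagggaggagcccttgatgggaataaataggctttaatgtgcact
Capitals mark GTTAAT in the shared run, GTTAAT and the C/EBP motif TTGCNNAA in Serpina1b, and the palindromic glucocorticoid receptor motif in Serpina3n. Motifs were searched on both strands in 32851 windows of the same length. GTTAAT occurred in 6.43% of all windows and in 5 of the 6 members' windows. TTGCNNAA occurred in 9.56% of all windows and in Serpina1b, Serpina1d and Serpina1e. The glucocorticoid receptor motif occurred in 0.387% of all windows and, among the members, in Serpina3n, where it lies 78 to 66 bases before the start. The STAT motif TTCNNNGAA (7.02% of windows) and TATAAA (12.4%) occurred in 0 of the 6. These are letter matches in windows of the reference strain, and binding was not measured.

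Libraries held between 15529940 and 18401178 counts. Control 5 stood apart from controls 6 and 7 in its liver RNA. Levels are given as CPM, counts scaled to library size with TMM factors. Alb, which encodes albumin, was at 353, 73804 and 128244 CPM in the controls against 1893, 733 and 1061 in the treated tumors. Here and in what follows, library values stand in the order control 5, 6, 7 and then GOx-DOX-LGP tumor 1, 2, 5. The 15 hepatocyte markers were all kept, with none at 0, and their sum ranged from 635 to 215064 CPM in the controls and from 1364 to 3495 in the treated tumors. In bulk tissue, fewer hepatocytes and less RNA per hepatocyte cannot be told apart. Since most members are liver genes, calls for the members and the gene lists, and the differences that control 5 moves most, are also given without it, and the part of liver content in the results was not tested.

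The 10 members together took 0.0305% of all counts in control 5 (95% Wilson interval 0.0297% to 0.0313%), 2.39% in control 6 and 3.01% in control 7. They took 0.129%, 0.0490% and 0.0678% in the treated tumors. The treated tumors thus lay between control 5 and the other controls. This order held for 9 of the members one by one, and Serpina3n was the exception, as the plot of levels by library shows.

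**Figure D1:**
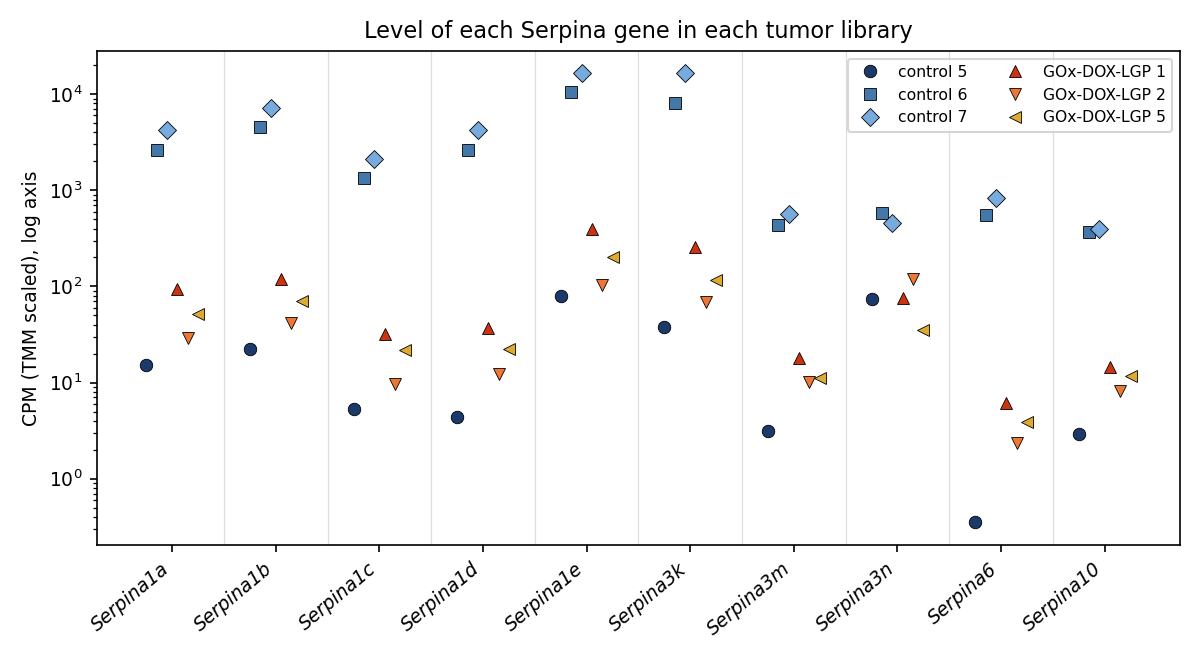
Level of each member in each library, as TMM-scaled CPM on a log axis; each point is 1 tumor library, blue for untreated controls and red to yellow for GOx-DOX-LGP. For 9 members control 5 is the lowest point, the 3 treated tumors lie above it and controls 6 and 7 lie highest, while for Serpina3n control 5 lies among the treated tumors.

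The 5 Serpina1 genes are mouse paralogs of alpha-1 antitrypsin, the plasma inhibitor of neutrophil elastase. Their loops differ, and which of them inhibit elastase was not tested. Serpina1e had the highest level of the 10 members per kb of exon in all 6 libraries, from 49.2 CPM per kb in control 5 to 10201 in control 7. Its CPM was 79.5, 10558 and 16495 in the controls against 395, 104 and 204 in the treated tumors. The treated tumors were all above control 5 and all below controls 6 and 7, so the groups overlapped. Its log2 fold change was -5.27 ± 1.80 (SE, n = 3 against 3, edgeR adjusted p = 0.247).

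Serpina1b followed the same order at a lower level. Its CPM was 22.5, 4500 and 7139 in the controls against 120, 41.3 and 70.7 in the treated tumors. The log2 fold change was -5.65 ± 1.84 (SE, edgeR adjusted p = 0.247). Serpina1a read 15.1, 2645 and 4272 CPM in the controls against 93.9, 29.2 and 51.6 in the treated tumors (log2 fold change -5.31 ± 1.78). Serpina1c was the least abundant of the 5 in controls 6 and 7, with 5.31, 1347 and 2136 CPM in the controls against 31.9, 9.65 and 21.8 in the treated tumors (log2 fold change -5.78 ± 1.87). For each of these paralogs the 3 treated tumors again stood above control 5 and below controls 6 and 7.

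Serpina1d had the largest fold change of the Serpina1 genes, at -6.59 ± 2.10 on the log2 scale. Its CPM was 4.43, 2604 and 4244 in the controls against 36.6, 12.4 and 22.2 in the treated tumors. The span among the controls alone was 958-fold, against 2.96-fold among the treated tumors. Per kb, Serpina1d was the third of the 10 members in controls 6 and 7 and the sixth or the seventh in the other libraries.

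The Serpina1 paralogs did not divide their counts in a fixed way. Serpina1d supplied 12.0% and 12.4% of Serpina1 counts in controls 6 and 7, but 3.49% in control 5 (95% exact interval 2.85% to 4.23%) and 5.41%, 6.30% and 5.99% in the treated tumors. The 4 libraries with little liver RNA thus had the lower Serpina1d shares, on both sides of the treatment. The treated minus control difference was -3.40 percentage points (controls 9.30% ± 5.03, treated 5.90% ± 0.450, SD, n = 3 each, exact permutation p = 0.4), and ranged from -6.30 without control 5 to -1.86 without control 7. Serpina1e took a larger share in those 4 libraries, with 62.7% in control 5, 48.8% and 48.1% in controls 6 and 7, and 58.3%, 52.9% and 55.1% in the treated tumors (difference 2.26 percentage points, exact permutation p = 0.7, and 7.01 without control 5).

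Serpina1a divided by treatment instead. It supplied 11.9%, 12.2% and 12.5% of Serpina1 counts in the controls and 13.9%, 14.9% and 13.9% in the treated tumors, so the groups did not overlap and control 5 lay with the other controls. The difference was 2.02 percentage points (controls 12.2% ± 0.265, treated 14.2% ± 0.560, SD, n = 3 each), with a two-sided exact permutation p of 0.1, the smallest that 3 against 3 can give. It was 1.89 without control 5, and between 1.70 and 2.20 when each library was left out in turn. Shares of 5 paralogs were compared, and the shares of Serpina1b and Serpina1c overlapped between the groups (differences -0.51 and -0.37 percentage points, exact permutation p = 0.9 and 0.8, and -1.55 and -1.05 without control 5). The 5 shares add up to a fixed whole, so they cannot move independently. How reads shared between paralogs were assigned, and how the C3H alleles map to the reference, was not tested for its part in these shares.

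**Figure D2:**
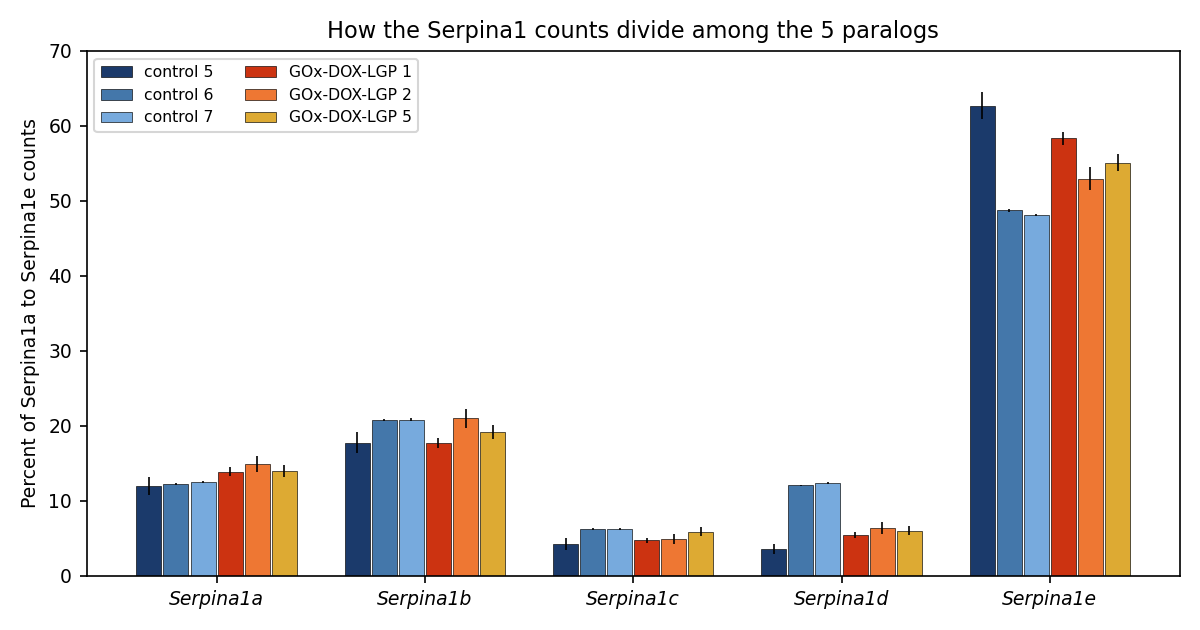
Percent of the counts of the 5 Serpina1 genes that each paralog supplied, per library; bars are single libraries and error bars are 95% exact binomial intervals, which cover counting error only. The Serpina1d bars of control 5 and the treated tumors lie below those of controls 6 and 7, and the 3 treated Serpina1a bars (13.9% to 14.9%) lie above the 3 control bars (11.9% to 12.5%).

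Among the Serpina3 genes, Serpina3k, which encodes a kallikrein-binding protein of plasma, was the second of the members per kb in 4 libraries and the third in the others. Its CPM was 38.1, 8062 and 16495 in the controls against 255, 68.8 and 115 in the treated tumors. The treated tumors lay between control 5 and the other controls (log2 fold change -5.81 ± 1.97, SE, edgeR adjusted p = 0.247). Serpina3m, its neighbour, read 3.16, 436 and 561 CPM in the controls and 18.0, 10.2 and 11.1 in the treated tumors, with a log2 fold change of -4.67 ± 1.57.

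Serpina3n encodes an acute phase serpin that inhibits granzyme B and is related to human antichymotrypsin. It read 74.7, 578 and 462 CPM in the controls and 75.1, 118 and 35.2 in the treated tumors. Control 5 lay within the range of the treated tumors, with 2 of the 3 treated tumors above it, and controls 6 and 7 were above all 3. The mean of controls 6 and 7 was 6.96 times control 5, against 132 to 1965 times for the other 9 members. Its log2 fold change was the smallest of the 10, at -2.29 ± 0.83 (SE, n = 3 against 3, edgeR adjusted p = 0.253).

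With liver RNA low, Serpina3n made up much more of the members' RNA. It supplied 30.3% of the members' counts in control 5 and 29.2% in GOx-DOX-LGP tumor 2, 7.18% and 6.43% in tumors 1 and 5, and 1.83% and 0.871% in controls 6 and 7. Per kb it was the second of the 10 in control 5 and tumor 2, the fifth in tumors 1 and 5, and the eighth and the ninth in controls 6 and 7. Against Serpina3k in the same library, the log2 ratio was 0.97, -3.80 and -5.16 in the controls against -1.76, 0.78 and -1.71 in the treated tumors. Serpina3n counts exceeded those of Serpina3k in control 5 and tumor 2 only. The treated minus control difference was 1.77 with overlapping groups (exact permutation p = 0.5), and ranged from 0.52 without control 7 to 3.58 without control 5. Control 5 and tumor 2 also had the highest summed levels of the 6 fibroblast markers. The sums were 5698, 1674 and 1350 CPM in the controls and 4551, 6795 and 2180 in the treated tumors, most of each from Col1a1, Col1a2 and Col3a1. Dcn, another gene of the list, was instead highest in controls 6 and 7, as Serpina3n was, at 121, 447 and 515 CPM in the controls against 135, 277 and 75.9 in the treated tumors. The part of these markers in the Serpina3n result was not tested.

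In the carrier and coagulation members the treated tumors again lay between control 5 and the other controls. Serpina6, the corticosteroid-binding globulin of plasma, read 0.351, 548 and 831 CPM in the controls and 6.08, 2.35 and 3.90 in the treated tumors. The control 5 value rests on 8 counts. Its log2 fold change of -6.80 ± 2.22 was the largest of the 10, and it was last per kb in control 5 and in the 3 treated tumors but the seventh in controls 6 and 7. Serpina10, the protein Z-dependent inhibitor of factor Xa, read 2.90, 366 and 397 CPM in the controls against 14.7, 8.23 and 11.8 in the treated tumors (log2 fold change -4.46 ± 1.52).

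Across the family, 10 of 10 members had a negative log2 fold change (48.9% of all genes tested, where 51.1% had a positive one), with a median of -5.48 against 0.02 over all genes tested. By edgeR's quasi-likelihood test 0 of the 10 passed an adjusted p of 0.05, and 0.0% of all genes did. At an unadjusted p under 0.05, 10 of the 10 were lower, where 14.6% of all genes were, and 0 were higher (2.87% of all genes). With fewer libraries these 10 became 7 without control 6, 7 without control 7, 0 without GOx-DOX-LGP tumor 1, 1 without tumor 2 and 0 without tumor 5. DESeq2 called 9 of the 10 lower (9.85% of all genes) and 0 higher (0.684%), with adjusted p between 0.000674 and 0.00623, and Serpina3n had an adjusted p of 0.0535. Without control 5, edgeR called 10 of 10 lower, with log2 fold changes from -7.35 (Serpina6) to -2.74 (Serpina3n) and adjusted p up to 0.00294, against 25.5% of all genes lower and 22.2% higher. Groups did not separate for any member (0 of 10, where 8.31% of all genes separated with lower and 8.87% with higher treated values). Exact permutation tests were run on the treated minus control difference in mean log2 CPM, not on the edgeR log2 fold changes. That difference was -1.996 for Serpina3n (exact permutation p = 0.3). For the rest it lay between -4.09 (Serpina1d) and -2.74 (Serpina10), with an exact permutation p of 0.4 for each. Of the hepatocyte markers, 15 of 15 were lower at an unadjusted p under 0.05 and 15 by DESeq2. The lower of controls 6 and 7 was 24.2 to 90.1 times the highest treated tumor for 9 members and 3.91 times for Serpina3n.

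**Figure D3:**
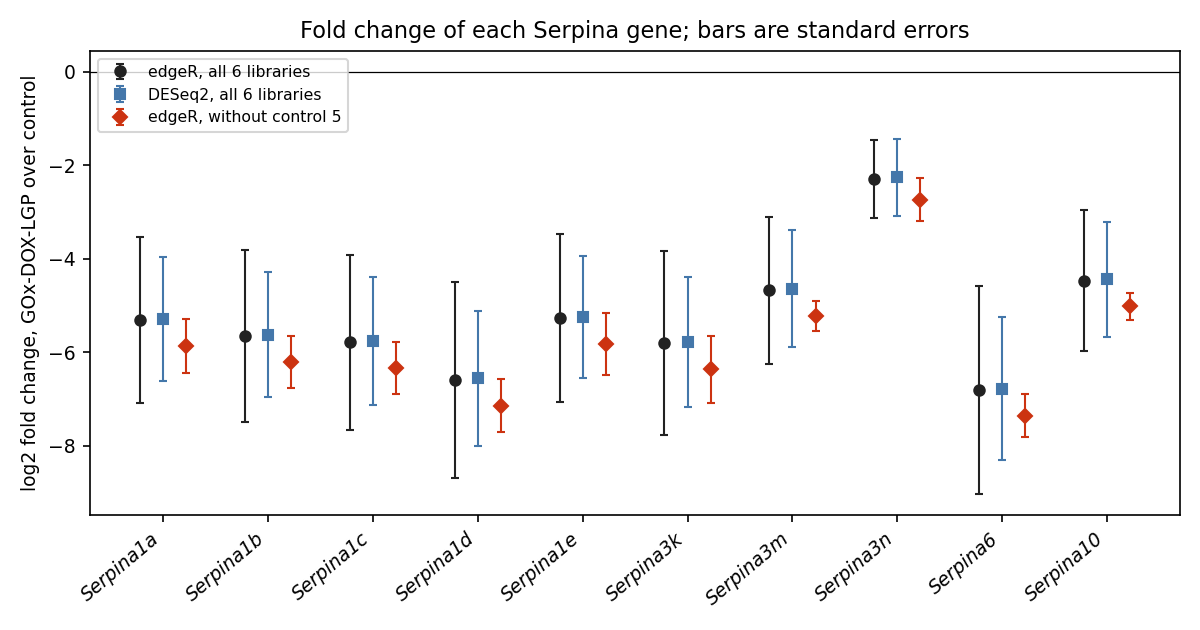
Log2 fold change of each member in GOx-DOX-LGP over control tumors, with bars for the standard error, from edgeR and DESeq2 on 6 libraries and from edgeR without control 5. Every point is below 0, Serpina3n is nearest to it (-2.29 in edgeR), and the error bars shorten when control 5 is left out.

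To set each member against liver content, its counts were divided by those of Alb in the same library, with 2 counts added to each. Serpina1b kept the steadiest ratio, with log2 values of -3.97, -4.04 and -4.17 in the controls against -3.98, -4.15 and -3.91 in the treated tumors. Its whole range was 0.26, while the Alb level itself spanned 364-fold among the controls. The treated minus control difference was 0.04 (exact permutation p = 0.6), and turned to -0.13 with Ttr and -0.40 with Apoa1 in place of Alb (exact permutation p = 0.5 and 0.2). Serpina1a, Serpina1c, Serpina1e and Serpina3k ranged over 0.52 to 0.81, with differences between -0.05 and 0.30 (exact permutation p from 0.2 to 1), or between -0.091 and 0.41 without control 5.

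Serpina1d and Serpina6 were lower against Alb in control 5 and in the treated tumors than in controls 6 and 7. For Serpina6 the log2 ratio was -9.65, -7.07 and -7.27 in the controls against -8.26, -8.23 and -8.05 in the treated tumors. For Serpina1d it was -6.29, -4.82 and -4.92 in the controls, and -5.69, -5.88 and -5.57 in the treated tumors. Both had overlapping groups (differences -0.18 and -0.37, exact permutation p = 1 and 0.4). Without control 5 the differences were -1.01 for Serpina6 and -0.84 for Serpina1d, and without control 6 they were 0.28 and -0.11.

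Serpina3m, Serpina10 and Serpina3n were higher against Alb in those same libraries. Serpina3m read -6.76, -7.40 and -7.84 in the controls against -6.71, -6.16 and -6.56 in the treated tumors. Of the 10 members it alone had groups that did not overlap on this measure, by a small margin between control 5 and tumor 1. The share of all genes that separate on this ratio was not computed. The Serpina3m difference was 0.86 (exact permutation p = 0.1, the smallest possible) and 1.14 without control 5. It was 0.69 with Ttr and 0.41 with Apoa1 in place of Alb (exact permutation p = 0.2 for both). Serpina10 differed by 0.98 (exact permutation p = 0.2), by 1.35 without control 5, 0.62 without control 7 and 0.53 with Apoa1. Serpina3n read -2.24, -7.00 and -8.12 in the controls and -4.65, -2.63 and -4.91 in the treated tumors, a range of 5.88, and differed by 1.72 (exact permutation p = 0.5) or by 3.49 without control 5 and 0.55 without control 7.

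**Figure D4:**
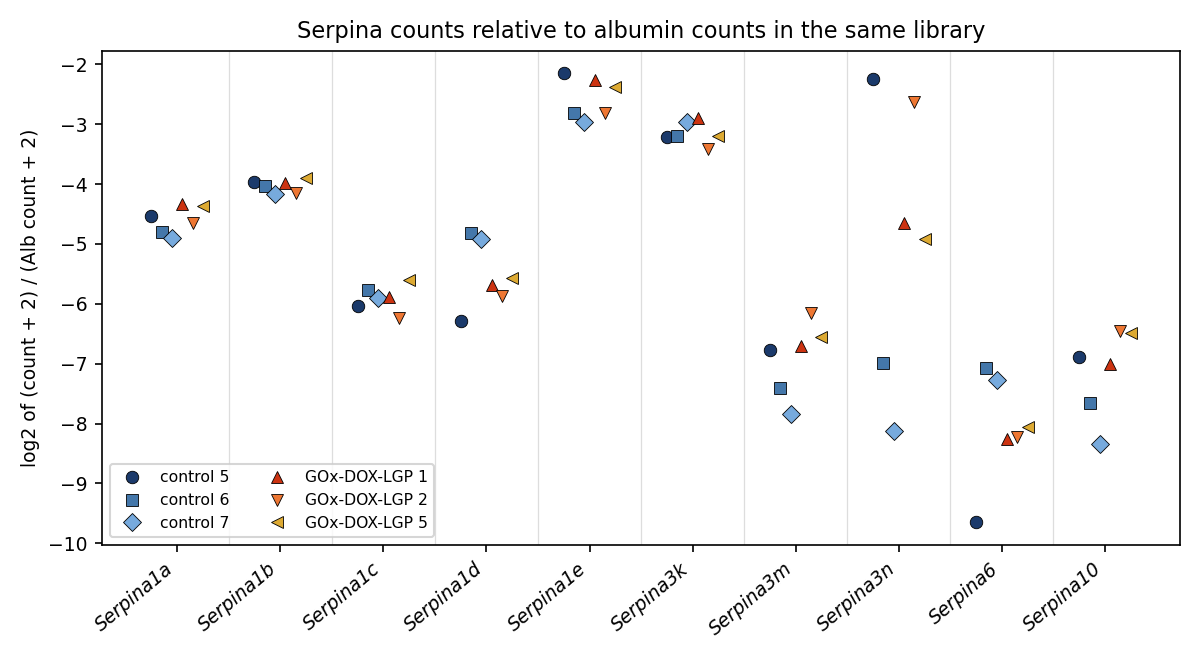
Log2 ratio of each member's count to the Alb count of the same library, with 2 added to both; each point is 1 library. Serpina1b stays within 0.26 over the 6 libraries, Serpina1d and Serpina6 lie lower in control 5 and the treated tumors than in controls 6 and 7, and Serpina3n spans 5.88.

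The genes with the profiles most like the members' were ranked by Euclidean distance between centred log2 CPM over the 6 libraries, members left out. The nearest to Serpina1b were H2-Q10 (distance 0.14), Gjb2, F2, Apoa5 and Alb (0.23). The nearest to Serpina3n were Peg3 (0.53), Gm5540, Arhgap29, Rai2 and Dusp23 (0.67), and the distance from Serpina3n to Serpina1b was 5.13. Peg3 read 3.77, 29.4 and 24.5 CPM in the controls against 3.71, 4.26 and 2.03 in the treated tumors, like Serpina3n with control 5 among the treated tumors.

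Of 17 other clade A genes, 8 passed the filter, and 5 of these were lower and 0 higher at an unadjusted edgeR p under 0.05 (14.6% and 2.87% of all genes). DESeq2 called 5 of the 8 lower at an adjusted p under 0.05, where it called 9.85% of all genes lower. Without control 5, 6 of 9 tested were lower and 2 higher at an edgeR adjusted p under 0.05 (25.5% and 22.2% of all genes). Agt, which encodes angiotensinogen, read 2.63, 385 and 492 CPM in the controls and 8.80, 4.26 and 5.67 in the treated tumors (log2 fold change -5.55 ± 1.66). Serpina12 (vaspin) and Serpina11 had log2 fold changes of -5.38 and -4.89. The 3 with a positive sign, chosen after their values were seen, were Serpina3f, Serpina3g and Serpina3i, none of which passed with 6 libraries, and the 2 called higher without control 5 were Serpina3f and Serpina3g. Serpina3g, a serpin of activated leukocytes, read 36.2, 15.3 and 12.5 CPM in the controls and 37.2, 39.8 and 40.1 in the treated tumors, above every control by a small margin over control 5. Its log2 fold change was 0.87 ± 0.43 (SE, edgeR adjusted p = 0.340).

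Of 13 serpins of other clades, all kept, 5 were lower and 2 higher at an unadjusted edgeR p under 0.05, against the same 14.6% and 2.87% of all genes. Leaving out control 5 gave 5 lower and 6 higher at an edgeR adjusted p under 0.05, where 25.5% and 22.2% of all genes passed. The largest fold changes were those of the coagulation inhibitors Serpinc1 (antithrombin, -6.18 ± 1.99) and Serpind1 (heparin cofactor II, -5.89 ± 1.75) and of the plasmin inhibitor Serpinf2 (-5.20 ± 1.65), all on the log2 scale. With 6 libraries none had an edgeR adjusted p under 0.05. Control 5 was the lowest library for each of these, as for 9 of the members. The 2 that were higher with 6 libraries were named after their values were seen. They were Serpinb9, a granzyme B inhibitor of cytotoxic lymphocytes, and its relative Serpinb9b. Serpinb9b read 6.32, 3.48 and 1.18 CPM in the controls and 15.7, 34.6 and 8.38 in the treated tumors (log2 fold change 2.39 ± 0.76), and Serpinb9 had a log2 fold change of 0.92 ± 0.32.

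Among proteases that serpins act on, 8 of 10 were kept, 5 lower and 1 higher at an unadjusted edgeR p under 0.05 (14.6% and 2.87% of all genes). Leaving out control 5 gave 5 lower and 1 higher of 9 at an edgeR adjusted p under 0.05, where 25.5% and 22.2% of all genes passed. The liver zymogens Plg (plasminogen, -5.83), F2 (prothrombin, -5.55) and Klkb1 (prekallikrein, -5.52) had the largest log2 fold changes. The 1 that was higher, Gzmb, the granzyme B that Serpina3n inhibits, was singled out after its values were seen. It read 5.48, 5.09 and 4.09 CPM in the controls and 26.0, 10.9 and 43.6 in the treated tumors, above all controls (log2 fold change 2.45 ± 0.53, edgeR adjusted p = 0.247). That was the smallest edgeR adjusted p of any gene tested with 6 libraries. Gzmb was also the 1 called higher without control 5. By DESeq2, 5 of the 8 were lower and 1, Gzmb (adjusted p = 0.0011), was higher at an adjusted p under 0.05, against 9.85% and 0.684% of all genes.

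Proz, the cofactor of Serpina10, read 2.33, 455 and 696 CPM in the controls and 11.4, 6.07 and 5.36 in the treated tumors (log2 fold change -5.66 ± 1.76). The receptors Lrp1 and Sorl1, which take up serpin complexes and related ligands, had log2 fold changes of 0.13 and 0.50 with overlapping groups. Nr3c1, the receptor of the hormone that Serpina6 carries, differed by -0.11 ± 0.25. With 6 libraries, 1 of these 4 genes was lower and 0 higher at an unadjusted edgeR p under 0.05 (14.6% and 2.87% of all genes). Without control 5, 1 was lower and 1, Sorl1, higher at an edgeR adjusted p under 0.05 (25.5% and 22.2% of all genes). Of 10 upstream regulators, 9 were kept, 2 lower and 1 higher at an unadjusted edgeR p under 0.05, where 14.6% and 2.87% of all genes were. Leaving out control 5 gave 4 lower and 1 higher of 10 at an edgeR adjusted p under 0.05, where 25.5% and 22.2% of all genes passed. Hnf4a read 4.52, 717 and 1114 CPM in the controls against 19.2, 6.56 and 11.3 in the treated tumors (log2 fold change -5.63), and Cebpa had a log2 fold change of -3.39. The regulator that was higher at an unadjusted p with 6 libraries, named after its values were seen, was Cebpb. It had a log2 fold change of 0.54 ± 0.22 (SE, edgeR adjusted p = 0.281). Socs3, a feedback inhibitor of STAT3 signalling, was the 1 called higher without control 5. With 6 libraries Socs3 had a log2 fold change of 1.29 ± 0.56, with treated values above all controls. The same held for Cebpb and Cebpd, so 3 of the 9 kept lay above all controls, where 8.87% of all genes did. In Il6st, 1 of the 9, treated values lay below all controls, where 8.31% of all genes did. Cebpd and Il6st were named after their values were seen.

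The summed levels of the remaining marker lists were as follows. Over 4 endothelial genes the sums were 132 to 294 CPM in controls and 90.9 to 129 in treated tumors. Macrophage sums were 237 to 439 and 399 to 894, T cell sums 20.0 to 80.4 and 90.3 to 164, neutrophil sums 7.86 to 22.7 and 15.5 to 54.2, and pancreas acinar sums 13.2 to 43.9 and 10.9 to 17.2 in controls and treated tumors. T cell sums lay higher, and endothelial sums lower, in all 3 treated tumors than in any control, and their part in the members' levels was not tested.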

How the data were processed

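Tumor RNA was sequenced from KAPA mRNA HyperPrep libraries, 3 labelled as control and 3 as GOx-DOX-LGP. The authors deposited raw counts per gene, and signal values that are those counts after division by 1 factor per library. Within a library the ratio of count to signal differed from a constant by at most 5.04e-08%. The Supporting Information names TopHat and HTSeq, whereas the submitters' processing notes name Trimmomatic 0.38, HISAT2 2.1.0 and featureCounts 2.0.0. The genome build is not given in the sources used here. Libraries were grouped by their labels, which match the column names, and 0 columns were left unused. Nothing in the labels says that libraries of a group come from separate mice other than their numbers, so p-values measure the spread between these samples.

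The raw counts were tested in R 4.3.3 with edgeR 4.0.16 (filterByExpr, TMM, quasi-likelihood test over 6 libraries without covariates, Benjamini-Hochberg adjustment over 15374 genes, threshold 0.05), and with DESeq2 1.42.0 and limma 3.58.1 as alternatives. Standard errors were derived from the fold change and its F statistic. Log2 CPM used a prior count of 2. Permutation tests were exact and two-sided, with a smallest p of 0.1. Intervals of shares cover counting error only. Other alternatives were DESeq2 size factors, library totals, upper quartile scaling, no filter, a filter of 10 counts in 3 libraries, Ttr or Apoa1 in place of Alb, 0.5 in place of 2 added counts, and each library left out. The edgeR, DESeq2 and limma fits were tested on simulated counts with 200 changed genes, and the other steps were not. Gene positions and exon lengths came from GENCODE M21 (55450 of 55536 identifiers matched), and upstream sequence from RefSeq. The named genes were the members, the 3 largest changes of each of the 5 lists of related genes (not the cell type markers), genes listed with a role of their own (Nr3c1) and the 5 nearest profiles, and exceptions are marked as chosen after their values were seen. Members, lists and tests were chosen with earlier results of these data known. No protein sequence was used here.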

Additional observations from a re-analysis of the deposited data

How the results depend on the processing

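Every member kept a negative log2 fold change under the alternatives run (14 each). Members called lower at an adjusted p under 0.05 numbered 0 in the quasi-likelihood test, 9 with DESeq2, 9 with the edgeR exact test and 10 with limma voom with quality weights, and 0 to 10 when a library was left out, with 10 without control 5. At an unadjusted p they numbered 10, 9 with library totals, and 0 to 10 when a library was left out, with 0 without GOx-DOX-LGP tumor 1, 1 without tumor 2 and 0 without tumor 5. Leaving out a library also leaves fewer samples. Scaling by library totals moved the median log2 fold change of all genes to 0.51, and the members then lay between -5.87 and -1.50. Over all genes the quasi-likelihood test called 0, DESeq2 1739, the exact test 1098, limma voom 9254 and the quasi-likelihood test without control 5 7745. No paired analysis was possible because the groups share only the number 5.

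Some differences against Alb turned sign. With Apoa1 in place of Alb they were -0.14 for Serpina1a, -0.40 for Serpina1b and -0.29 for Serpina1e, and with Ttr they were -0.13 for Serpina1b and -0.020 for Serpina1e. With each library left out in turn, they ranged from -0.010 (without control 7) to 0.11 for Serpina1b, from -0.15 to 0.16 (without tumor 2) for Serpina1c, from -0.0087 (without control 7) to 0.40 for Serpina1e, from -0.18 to 0.074 (without tumor 2) for Serpina3k, and from -1.01 (without control 5) to 0.28 (without control 6) for Serpina6. Of the shares of Serpina1 counts, Serpina1b ranged from -1.55 (without control 5) to 0.28 (without tumor 1) and Serpina1e from -0.28 (without control 7) to 7.01 percentage points (without control 5). The cause was not tested.

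There were 3 libraries a group. Control 5 was lower in summed hepatocyte markers (635 CPM) than every treated tumor (1364 to 3495 CPM). Depth limits Serpina6 in control 5, at 8 counts.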
